A study of Mus musculus with 38 samples.

Results

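Sites mapped with an antibody to phosphorylated CREB were compared with sites mapped with an antibody to CREB, whatever its phosphorylation. Both came from the liver of 24 h fasted mice. The members were all sites of the deposited phospho-CREB list, 6812, and all sites of the deposited CREB list, 11339. Together these 18151 sites were part of 278566 regions in the 11 peak lists of the series that could be matched to sample labels. A site of one list counted as present in the other if the sites shared at least 1 base. Density was read as MaxD, the highest tag density that the authors give for a site, and was used only to rank sites within a list. Each list was divided by MaxD into 10 density classes of equal size, numbered 1 for the densest 10% to 10 for the sparsest.

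CREB is a transcription factor that binds cAMP response elements in DNA, largely as a dimer. Glucagon, released during fasting, raises cAMP in hepatocytes, and protein kinase A then phosphorylates CREB at a serine that recruits the coactivators CBP and p300. In fasted liver this pathway is known for its part in switching on genes of glucose production. CREB can also sit on its sites without that phosphate, so a CREB antibody and a phospho-specific antibody ask related but separate questions of the same chromatin.

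The material was liver of C57BL/6 mice fasted for 24 h, with chromatin precipitated by a rabbit monoclonal antibody to phospho-CREB (Ser133) (87G3) or by one to CREB (48H2). The same antibodies were used on liver of C57BL/6 mice fed ad lib, and those lists are set beside the fasted ones below. Further lists came from H3K27ac, a histone mark of active promoters and enhancers, in liver after 10 or 24 h of fasting or from fed mice. Others came from hepatocytes isolated by collagenase perfusion, mapped for CREB after 1 h with 10 nM glucagon plus 1.7 uM corticosterone, after 10 nM glucagon alone, or without treatment, and for the glucocorticoid receptor (GR) after glucagon plus corticosterone. Whole liver holds other cells beside hepatocytes, and peak lists hold no expression markers, so the labelled tissue was not checked against markers.

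Each list gives 1 value per site and no value per library. Going by their names, the phospho-CREB and CREB lists of liver each rest on 2 libraries, replicates 1 and 3, of the 3 samples in a group, and the labels do not say whether the samples came from separate animals. No spread between replicates and no test between lists could therefore be computed. Without read counts, depth is unknown. The 95% Wilson intervals given with shares cover counting error over sites only, and sites that lie close together are not independent.

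The lists differed in length and in the reach of their density values. Phospho-CREB sites covered 3.28 Mb with a median width of 412 bp, and CREB sites covered 6.55 Mb with a median width of 497 bp. MaxD ran from a low of 1.17 to a high of 2978 in the phospho-CREB list, with a median of 4.28. In the CREB list it ran from 0.318 to 12969, with a median of 8.42.

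Fewer than 1 in every 2 phospho-CREB sites had a CREB site beneath them. A CREB site was found at 3204 of the 6812 phospho-CREB sites (47.0%, with an interval of 45.9 to 48.2), leaving 3608 without one. A phospho-CREB site was found at 3110 of the 11339 CREB sites (27.4%, 26.6 to 28.3), leaving 8229 without one. The match was close to 1 site for 1 site, with 3142 phospho-CREB sites touching a single CREB site and 62 touching more. Where sites met, they met nearly on centre. Of 3273 overlapping pairs, the 3204 that join each shared phospho-CREB site to its densest CREB partner were measured. Their midpoints were a median of 45 bp apart, and 74.5% of them had midpoints within 100 bp. The phospho-CREB site, with a median width of 498 bp in these pairs, was covered over its whole length in the median pair, and the CREB site, 632 bp wide, over 74.8% of its length. The deposited z-score was at least 9.73 throughout the phospho-CREB list, and 1264 CREB sites had a lower one. Of those CREB sites, 80 (6.33%) had a phospho-CREB site, against 30.1% of the rest.

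Sites found in 1 list only mostly lay far from any site of the other. The median phospho-CREB-only site lay 74044 bp from the nearest CREB site, and 5.52% of such sites lay within 500 bp of one. The median CREB-only site lay 129955 bp from the nearest phospho-CREB site, and 4.40% lay within 500 bp.

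Presence in the CREB list followed phospho-CREB density closely. Of the densest 10% of phospho-CREB sites, 97.9% were present in the CREB list (96.6 to 98.8). The share was 93.0% in class 2, 85.8% in class 3 and 69.3% in class 4. It was 38.8% in class 5 and 27.7% in class 6, and classes 7 to 10 held 17.8, 15.9, 12.5 and 11.7%. Phospho-CREB sites without a CREB site were therefore mostly sparse ones.

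The reverse reading had a different shape. Of the densest 10% of CREB sites, 60.1% were present in the phospho-CREB list (57.2 to 62.9). In class 2 the share was 25.04% (22.6 to 27.6). It stayed between 22.8 and 26.5% from class 3 to class 6, stood at 35.4% (32.6 to 38.2) in class 7, and was 22.3, 18.5 and 12.2% in classes 8 to 10. CREB sites of class 2, with MaxD of 20.9 to 41.2, were thus found at phospho-CREB sites less often than CREB sites of class 7, with MaxD of 4.01 to 6.01.

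**Figure D1:**
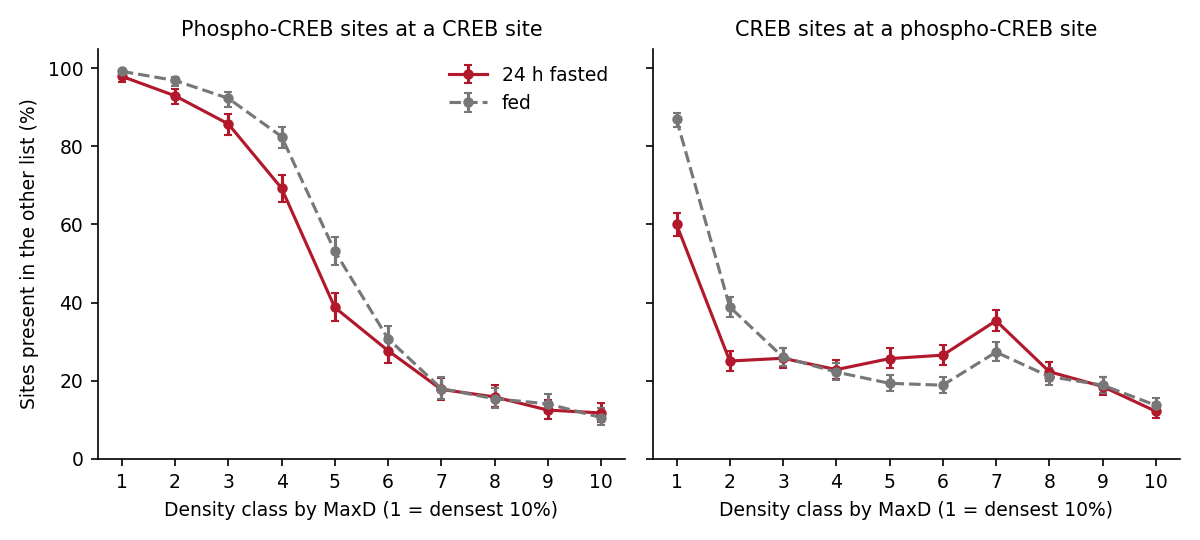
Share of sites (vertical axis, %) present in the other list, by density class of the list (horizontal axis, 1 the densest 10%), for phospho-CREB sites at a CREB site (left) and CREB sites at a phospho-CREB site (right). Points are shares and bars 95% Wilson intervals, red for 24 h fasted and grey dashed for fed liver. On the left the fasted curve declines from class to class between 97.9 and 11.7%, and on the right it drops after class 1 and has another peak of 35.4% in class 7.

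Width, which gives a site more bases to share, moved with presence too. To set it beside density, each list was cut into 3 groups of equal size by density and, separately, into 3 by width. In the densest group of the phospho-CREB list, 94.2% of the wide sites, 89.1% of those of middle width and 79.9% of the narrow ones lay at a CREB site. In the sparsest group the same shares were 20.2, 14.9 and 11.9%. Narrow dense sites therefore stood well above wide sparse ones. Among wide CREB sites, in contrast, the share at a phospho-CREB site was 36.4% in the densest group, 56.1% in the middle one and 53.6% in the sparsest. The part of width in these shares was not tested further.

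The very top of both lists was common. Of the 10 densest phospho-CREB sites, 9 lay at 1 of the 10 densest CREB sites. The leading site of both lists was on chromosome 10 (mm9 coordinates, as deposited), from 121199934 to 121200491 in the phospho-CREB list with a MaxD of 2978. Its partner in the CREB list ran from 121200000 to 121200532 with a MaxD of 12969. On chromosome 14 from 46432324 to 46432692, the phospho-CREB site of rank 2 had a MaxD of 2513, and its partner had rank 5 in the CREB list with 5458. Rank 3 among phospho-CREB sites fell to chromosome 7 from 97590130 to 97590690, with a MaxD of 2126 and a partner of rank 4 with 5594.

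These leaders were few, and their overlaps are given as counts. All 5 of the densest shared phospho-CREB sites lay at sites of both fed lists, but only the chromosome 7 site lay in an H3K27ac region. Of the 5, 0 overlapped a CREB site of glucagon-treated hepatocytes, although the CREB partner of the chromosome 7 site did. The chromosome 7 phospho-CREB site itself overlapped a CREB site of untreated hepatocytes. All 7 phospho-CREB sites with a MaxD over 1000 were shared, 1 lay in a 24 h H3K27ac region and 0 lay at a hepatocyte glucagon CREB site. Of 14 CREB sites with a MaxD over 1000, 11 were shared, 4 lay in a 24 h H3K27ac region and 2 lay at a hepatocyte glucagon CREB site. A 24 h H3K27ac region covered 13.1% of all fasted phospho-CREB sites and 39.2% of all fasted CREB sites, and in density class 1 it covered 466 of 682 phospho-CREB sites (68.3%) and 887 of 1134 CREB sites (78.2%). A hepatocyte glucagon CREB site lay at 332 of the 682 phospho-CREB sites (48.7%) and at 967 of the 1134 CREB sites (85.3%) of class 1.

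Below the first 10, the tops of the lists parted and then met again in part. Of the 50 densest phospho-CREB sites, 15 lay at 1 of the 50 densest CREB sites, although all 50 lay at some CREB site. Of the 50 densest CREB sites, 41 lay at some phospho-CREB site. Among the 100 densest of each list 43 were common, and of the 500 densest phospho-CREB sites 269 (53.8%) lay at 1 of the 500 densest CREB sites. In fed liver, where a list of the same kind was available for each antibody, 27 of the top 50, 61 of the top 100 and 385 of the top 500 phospho-CREB sites (77.0%) did so.

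Where a site was in both lists, its MaxD ranks went together. Each of the 3204 shared phospho-CREB sites was paired with the densest CREB site it touched. Across these pairs the Spearman correlation between MaxD values was 0.90, as a description over sites that come from the same pair of lists. It was also 0.88 over the 2536 pairs outside the densest 10% of phospho-CREB sites and 0.83 to 0.89 within 4 classes of phospho-CREB width. It was 0.91 over the 2414 autosomal pairs and 0.89 over the 790 pairs on chromosomes X and Y. Over the 668 pairs of the densest 10% it was 0.49. The correlation was weaker, 0.61, when z-scores replaced MaxD both as values and in choosing the partners.

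The pairs fell on separate bands rather than a single line. CREB sites mapped in glucagon-treated hepatocytes, from libraries that played no part in the match, marked the bands. That list also holds CREB sites, and its overlap followed CREB density. It met 967 of 1134 fasted CREB sites of class 1 and 35 of 1133 of class 10. A higher CREB rank at its sites is thus partly built into the split, and how far was not tested. Among 827 pairs whose CREB site also lay at a hepatocyte glucagon CREB site, the CREB rank percentile (0 for the densest) was the smaller of the 2 in 73.6% of pairs. Among the 2377 pairs whose CREB site did not, it was the smaller in 10.7%.

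At equal phospho-CREB rank, the bands were far apart in classes 1 to 3. In class 2 of the phospho-CREB list, the CREB partner stood at a median percentile of 4.84 (quartiles 3.605 and 7.635) in the 240 pairs at a hepatocyte CREB site. It stood at 25.7 (20.7 and 32.6) in the 393 pairs not at one. In class 1 the medians were 1.89 in 335 pairs at and 11.2 in 333 pairs not at a hepatocyte CREB site. In class 3 they were 13.4 in 133 pairs at and 43.0 in 451 pairs not at one. In class 4 the bands overlapped, with medians of 51.0 (41.3 and 60.3) in 55 pairs at and 58.5 (48.7 and 64.7) in 417 pairs not at one. Both medians lay further down the CREB list than class 4 lies in the phospho-CREB list. From class 5 to class 10 the bands stayed close, with at most 19 pairs at a hepatocyte CREB site in a class. Over all pairs, most sites known as CREB sites in hepatocytes thus stood nearer the top of the CREB list than of the phospho-CREB list. Most sites absent from the hepatocyte list stood the other way round. Percentiles depend on which other sites each list holds, so the bands describe order within these lists, not amounts of protein.

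**Figure D2:**
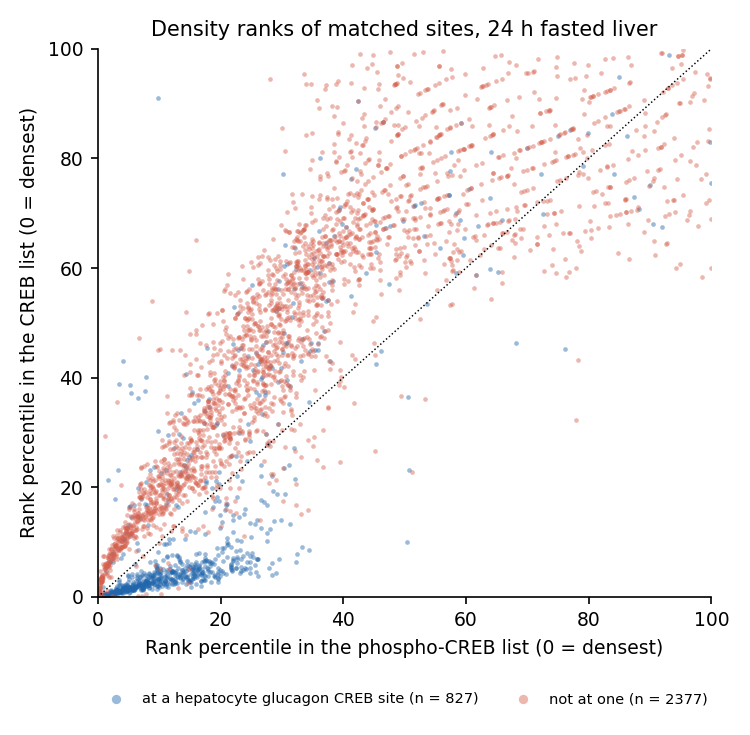
Rank percentile by MaxD in the phospho-CREB list (horizontal axis, 0 the densest) and in the CREB list (vertical axis) for the 3204 shared phospho-CREB sites of 24 h fasted liver and their CREB partners. Each point is a pair, blue where the CREB site lies at a CREB site of glucagon-treated hepatocytes (n = 827) and red where it does not (n = 2377), and the dotted line marks equal percentiles. Most blue points lie below the line in a flat band, and most red points lie above it.

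The same split gave curves of presence by CREB rank with different shapes. A total of 4972 CREB sites (43.8%) lay at a hepatocyte glucagon CREB site, and 16.2% of them (15.2 to 17.2) lay at a phospho-CREB site. Of the 6367 other CREB sites, 36.2% (35.0 to 37.4) did. For sites at a hepatocyte CREB site the share was 56.3% (53.1 to 59.4) in class 1. It was 7.39% (5.85 to 9.30) in class 2 and 4.37% (3.17 to 5.99) in class 3. For sites not at one it was 82.0% (75.5 to 87.1), 90.5% (86.1 to 93.6) and 82.6% (78.0 to 86.4) in the same 3 classes.

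Among CREB sites outside the hepatocyte list, presence at phospho-CREB thus declined with rank much as presence of phospho-CREB sites at CREB did. It was 67.3% in class 4, 54.8% in class 5 and 12.2% in class 10. Over the denser 50% of the CREB list, 710 of 4143 sites at a hepatocyte CREB site (17.1%, 16.0 to 18.3) and 1097 of 1527 sites not at one (71.8%, 69.5 to 74.0) lay at a phospho-CREB site. The sites at a hepatocyte CREB site were also the wider and denser ones, with a median width of 697 bp at and 571 bp not at one, and a median MaxD of 18.4 at and 13.8 not at one.

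Sex chromosomes were unevenly spread over this split. Of the denser 50% of CREB sites, 2.66% of those at a hepatocyte CREB site and 42.0% of those not at one lay on chromosome X or Y. Without chromosomes X and Y the shares at a phospho-CREB site were 16.1% at and 62.7% not at a hepatocyte CREB site. With ranks by z-score instead of MaxD they were 25.6% and 53.3%.

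**Figure D3:**
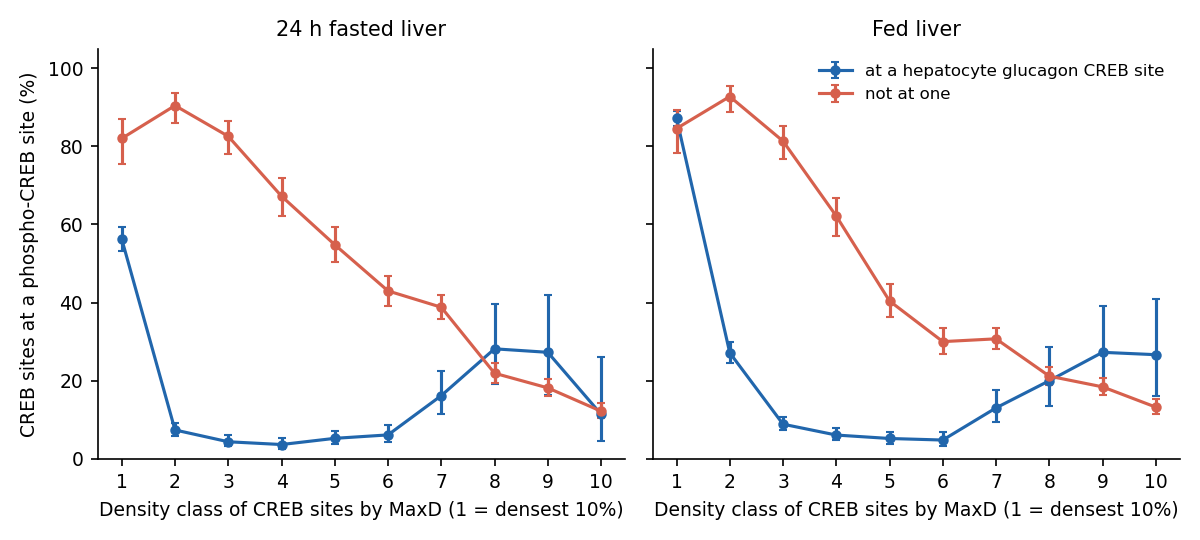
Share of CREB sites that lie at a phospho-CREB site of the same feeding state (vertical axis, %) by density class of the CREB list (horizontal axis, 1 the densest 10%), in 24 h fasted liver (left) and fed liver (right). Blue marks CREB sites at a CREB site of glucagon-treated hepatocytes and red those not at one, with 95% Wilson intervals. In class 2 of the fasted list the shares are 7.39% at and 90.5% not at a hepatocyte site.

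H3K27ac split the CREB sites in the same direction, though less sharply. Within class 2 of the CREB list, 17.6% of the sites in a 24 h H3K27ac region (15.2 to 20.2) and 50.6% of those outside one (44.5 to 56.6) lay at a phospho-CREB site. In class 1 the shares were 60.8% inside (57.5 to 63.9) and 57.5% outside (51.3 to 63.5), which overlap within their intervals. Across matched pairs the Spearman correlation was 0.53 in the 882 pairs in an H3K27ac region and 0.89 in the 2322 pairs outside one. Pairs in a region were the denser ones, with a median phospho-CREB percentile of 9.31, against 32.2 outside. Over the densest 10% of phospho-CREB sites, in a region or not, the correlation was 0.49. The part of density in this difference was not tested.

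The fed lists gave the setting in which the fasted pattern could be compared. In fed liver the share was 51.3% for phospho-CREB sites and 29.3% for CREB sites. The fasted curve of presence by phospho-CREB rank ran below the fed one in each of classes 1 to 6. In class 4 it was 69.3% in fasted liver (65.7 to 72.7) and 82.5% in fed liver (79.7 to 85.1). The larger gap lay in class 1 of the CREB lists, where 60.1% of fasted sites (57.2 to 62.9) and 86.9% of fed sites (85.0 to 88.6) lay at a phospho-CREB site of their own state.

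Split by the hepatocyte list, the fasted and fed shares differed in opposite directions, a difference that was not tested. Over all CREB sites at a hepatocyte CREB site, the share at a phospho-CREB site was 16.2% (15.2 to 17.2) in fasted liver and 26.6% (25.5 to 27.7) in fed liver. Over all CREB sites not at one it was 36.2% (35.0 to 37.4) in fasted liver and 31.6% (30.6 to 32.7) in fed liver. Among class 1 CREB sites at a hepatocyte CREB site, the share at a phospho-CREB site was 56.3% (53.1 to 59.4) in fasted liver and 87.3% (85.2 to 89.1) in fed liver. Among those not at one, the share was 82.0% (75.5 to 87.1) in fasted liver and 84.6% (78.2 to 89.3) in fed liver. In class 2, sites at a hepatocyte CREB site gave 7.39% in fasted liver and 27.2% in fed liver, and sites not at one gave 90.5% in fasted liver and 92.8% in fed liver. The higher fasted share at sites not at a hepatocyte CREB site came lower in the list. It was 54.8% (50.3 to 59.3) in fasted liver and 40.4% (36.3 to 44.7) in fed liver in class 5, and 43.0% (39.2 to 46.9) in fasted liver and 30.01% (26.8 to 33.4) in fed liver in class 6.

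The same fasted CREB sites could be looked up in both phospho-CREB lists. Of the 967 fasted CREB sites of class 1 at a hepatocyte CREB site, 544 lay at a fasted and 905 at a fed phospho-CREB site. A total of 535 lay at both, 9 at a fasted phospho-CREB site alone and 370 at a fed one alone. Of the 423 that were absent from the fasted phospho-CREB list, 87.5% (84.0 to 90.3) were in the fed one. Of the 893 such sites of class 2, 66 lay at a fasted and 323 at a fed phospho-CREB site. The fasted phospho-CREB list held 6812 sites with a lowest z-score of 9.73, and the fed list 7669 sites with a lowest z-score of 8.98. How far list length and threshold enter this difference was not tested, and with 1 list per state the feeding state and the libraries cannot be told apart.

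Shared, phospho-CREB-only and CREB-only sites were then looked up in the other lists. Phospho-CREB-only sites were narrow and sparse, with a median width of 343 bp and a median MaxD of 3.11. Shared phospho-CREB sites had medians of 498 bp and 10.5. In the CREB list, shared sites had a median width of 613 bp and a MaxD of 10.5, and CREB-only sites 452 bp and 7.77. CREB-only sites were therefore not confined to the sparse end of their list, and their median rank percentile was 53.0, against 69.4 for phospho-CREB-only sites.

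Taken over all densities, H3K27ac of 24 h fasted and of fed liver marked CREB-only sites more often than the other classes. As a base, 24 h H3K27ac regions covered 13.1% of all fasted phospho-CREB sites and 39.2% of all fasted CREB sites. By class the share was 26.5% for shared phospho-CREB sites (24.999 to 28.1), 1.22% for phospho-CREB-only sites (0.910 to 1.63) and 43.7% for CREB-only sites (42.6 to 44.7). The order was the same for H3K27ac of fed liver, with 24.4% of shared phospho-CREB, 1.05% of phospho-CREB-only and 41.6% of CREB-only sites, beside 12.1% of all fasted phospho-CREB sites and 37.0% of all fasted CREB sites.

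Density changed the reading. In class 3 of the phospho-CREB list, 24 h H3K27ac regions covered 17.6% of 584 shared sites (14.8 to 20.9). They covered 16.5% of the 97 phospho-CREB-only sites (10.4 to 25.1) of that class. In class 4 the shares were 4.03% of shared and 3.35% of phospho-CREB-only sites. They lay further apart in class 2, at 39.0% of shared and 22.9% of 48 phospho-CREB-only sites. In class 1 they were 69.2% of shared and 28.6% of 14 phospho-CREB-only sites. In class 1 of the CREB list, 79.1% of shared CREB sites and 76.8% of CREB-only sites lay in a 24 h H3K27ac region. In class 3 the shares were 22.3% of 292 shared CREB sites and 81.9% of 842 CREB-only sites. Shared CREB sites of moderate density were thus seldom in an H3K27ac region of this list, while CREB-only sites of the same density mostly were.

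The longer H3K27ac list of 10 h fasted liver did not follow that order. It covered 34.1% of all fasted phospho-CREB sites and 54.8% of all fasted CREB sites, with 63.6% of shared phospho-CREB sites, 7.98% of phospho-CREB-only sites and 51.6% of CREB-only sites. The regions met differed in rank. At shared phospho-CREB sites outside the hepatocyte CREB list, the 10 h regions stood at a median density percentile of 76.3, near the sparse end. At shared phospho-CREB sites within the hepatocyte list they stood at 23.0, and at CREB-only sites within it at 15.0. Sparse regions outside the hepatocyte list were not particular to shared sites. There the regions stood at 83.8 at 670 CREB-only sites and at 93.6 at 236 phospho-CREB-only sites.

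Hepatocyte CREB sites gave the order seen with 24 h and fed H3K27ac. These lists also hold CREB sites, so overlap with sites of the CREB list is partly built in. CREB sites of glucagon-treated hepatocytes met 13.4% of all fasted phospho-CREB sites and 43.8% of all fasted CREB sites. By class they met 25.1% of shared phospho-CREB sites, 2.94% of phospho-CREB-only sites and 50.6% of CREB-only sites. Within class 2 of the CREB list they met 23.2% of shared and 97.3% of CREB-only sites. These are the sites of the split given above, read the other way, and not a further result. With the hepatocyte list of glucagon plus corticosterone the shares of the 3 classes, in the same order, were 23.9, 4.07 and 52.1%, beside 13.4% of all phospho-CREB and 44.7% of all CREB sites. With the list of untreated hepatocytes they were 27.8, 7.62 and 52.9%, beside 17.1% and 46.3%.

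GR, the nuclear receptor that binds corticosterone, gave another order, with shared sites first. GR sites of hormone-treated hepatocytes met 15.0% of all fasted phospho-CREB sites and 16.7% of all fasted CREB sites. They met 24.7% of shared phospho-CREB sites (23.2 to 26.2), 6.49% of phospho-CREB-only sites (5.73 to 7.34) and 13.4% of CREB-only sites (12.7 to 14.1). Within class 2 of the CREB list, 48.9% of shared sites (43.2 to 54.7) and 13.3% of CREB-only sites (11.2 to 15.7) lay at a GR site. The gap was narrower in other classes. In class 5 the shares were 28.9% of shared (24.0 to 34.3) and 19.9% of CREB-only sites (17.4 to 22.8). In class 7 they were 20.4% (16.8 to 24.7) and 16.8% (14.2 to 19.7).

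**Figure D4:**
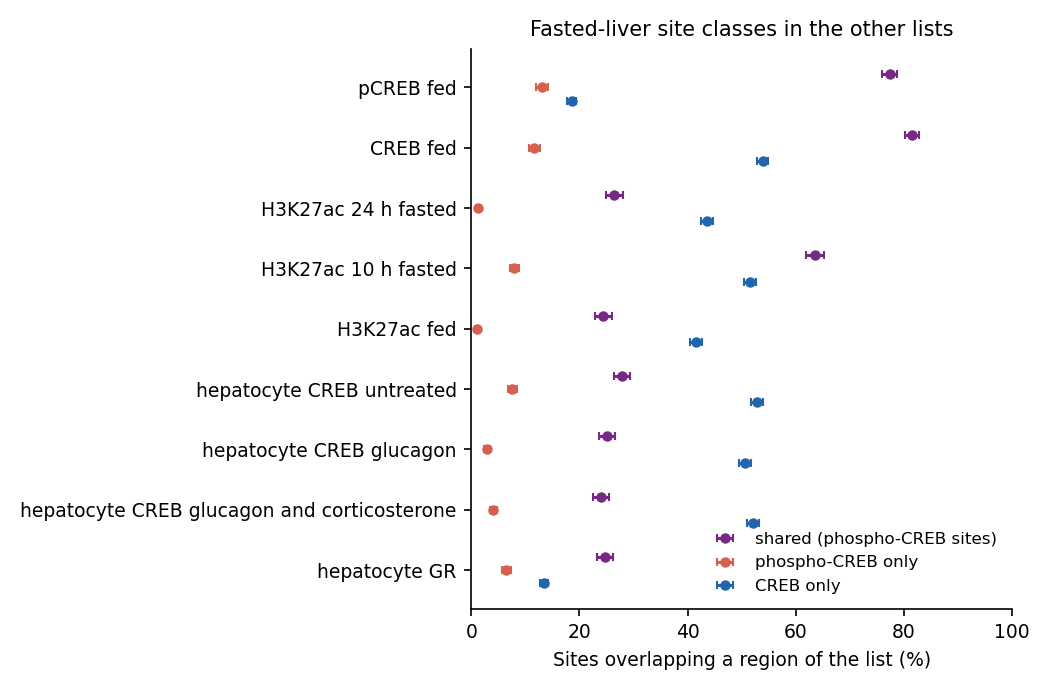
Share of sites (horizontal axis, %) that overlap a region of each other list (rows; pCREB stands for phospho-CREB), for shared phospho-CREB sites (purple), phospho-CREB-only sites (red) and CREB-only sites (blue) of 24 h fasted liver, with 95% Wilson intervals. Phospho-CREB-only sites have the lowest share in every row, and CREB-only sites have the highest in the rows for 24 h and fed H3K27ac and for hepatocyte CREB.

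Recurrence in fed liver separated shared sites from those of 1 list. Fed CREB sites met 44.5% of all fasted phospho-CREB sites and 61.3% of all fasted CREB sites. They met 81.5% of shared phospho-CREB sites, 11.7% of phospho-CREB-only sites and 53.9% of CREB-only sites. Fed phospho-CREB sites met 43.3% of all fasted phospho-CREB sites and 34.6% of all fasted CREB sites, with 77.4% of shared phospho-CREB sites, 13.03% of phospho-CREB-only sites and 18.6% of CREB-only sites. Phospho-CREB-only sites thus rarely recurred, even with the same antibody.

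Even the denser phospho-CREB-only sites recurred less. In class 4 of the phospho-CREB list, 74.4% of 472 shared sites (70.2 to 78.1) and 23.9% of 209 phospho-CREB-only sites (18.6 to 30.1) lay at a fed phospho-CREB site. CREB-only sites of class 1 mostly did recur. Of those 453 sites, 96.9% lay at a fed CREB site and 82.3% at a fed phospho-CREB site. For all CREB sites of class 1 the shares were 98.1 and 92.0%. Recurrence of CREB-only sites also depended on density. In class 4, 77.4% of 875 CREB-only sites lay at a fed CREB site and 8.91% at a fed phospho-CREB site.

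Shared sites were more often clustered, and more often on the sex chromosomes, than sites of 1 list. Another site of the same list lay within 10000 bp of 54.3% of shared phospho-CREB sites and of 24.3% of phospho-CREB-only sites. For CREB the shares were 57.8% of shared and 27.3% of CREB-only sites. Chromosome X held 14.0% of the phospho-CREB list and 9.72% of the CREB list. It held 21.3% of shared phospho-CREB sites, 7.62% of phospho-CREB-only sites, 19.9% of shared CREB sites and 5.88% of CREB-only sites.

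On chromosome X, 71.2% of phospho-CREB sites and 56.1% of CREB sites were present in the other list. Chromosome Y gave 90.8% of 120 phospho-CREB sites and 73.9% of 142 CREB sites. Over all autosomes the shares were 42.1% of phospho-CREB sites and 23.6% of CREB sites. Single autosomes ran from 30.7% on chromosome 12 to 57.5% on chromosome 8 for phospho-CREB, and from 17.3% on chromosome 11 to 33.2% on chromosome 8 for CREB. Both sex chromosomes stood above every autosome in both directions, and their part in the shares above was not tested beyond the values without them.

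**Figure D5:**
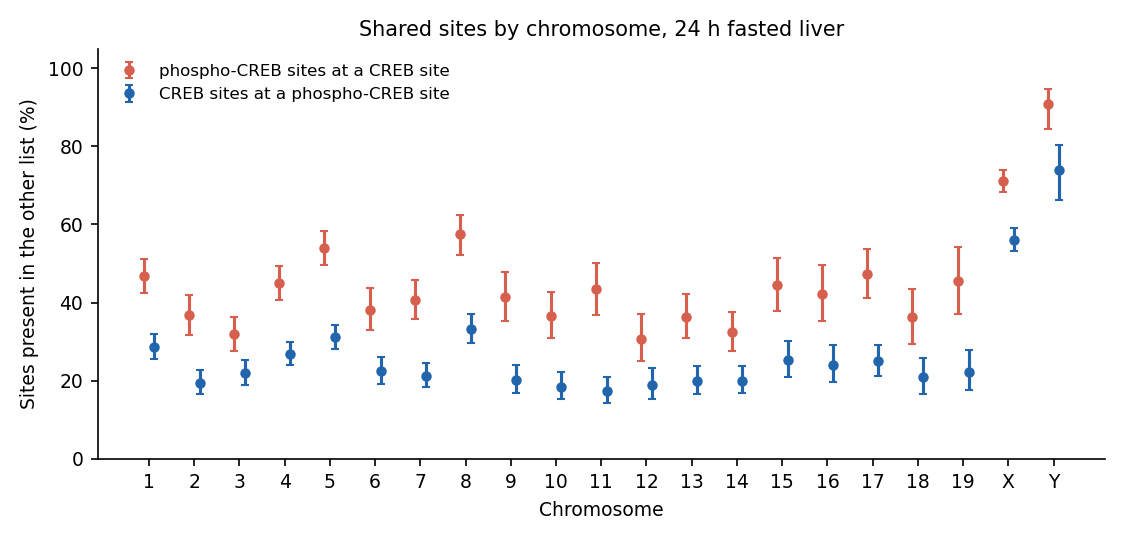
Share of sites present in the other list (vertical axis, %) by chromosome (horizontal axis) in 24 h fasted liver, red for phospho-CREB sites at a CREB site and blue for CREB sites at a phospho-CREB site, with 95% Wilson intervals. Chromosomes X (71.2 and 56.1%) and Y (90.8 and 73.9%) stand above all 19 autosomes.

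The densest sites of 1 list only had no common profile. The leading phospho-CREB-only site lay on chromosome 16 from 21282149 to 21282597, with a MaxD of 84.4 and rank 70 in its list, and it recurred in the fed phospho-CREB list. The 5 densest phospho-CREB-only sites had MaxD of 33.2 to 84.4, and 1 of the 5 lay in a 24 h H3K27ac region. The leading CREB-only site lay on chromosome 16 from 10832530 to 10832842, with a MaxD of 3063 and rank 6. It recurred in the fed CREB list and in no other list. On chromosome 11 from 22872868 to 22873378, the next CREB-only site, with a MaxD of 1131, lay at a fed phospho-CREB site, in all 3 H3K27ac lists and at hepatocyte CREB sites of both hormone treatments.

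Pairs with a high rank in one list and a low rank in the other are described by the 5 farthest apart in each direction. The clearest case of dense phospho-CREB and sparse CREB was on chromosome 19 from 4060456 to 4062472. Its phospho-CREB MaxD of 22.7 had rank 670, while its CREB partner had a MaxD of 2.57 and rank 10310. The other CREB partners stood near the middle of their list, at percentiles of 43.0 to 54.0. The 5 phospho-CREB sites of these pairs were 2017 to 5809 bp wide, far above the median width of the list. Of these 5, 3 lay at a GR site, as did 28.9% of all phospho-CREB sites of class 1.

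Among dense CREB sites, the one with the lowest-ranked phospho-CREB partner was on chromosome 7 from 106631726 to 106632799. It had a CREB MaxD of 49.2 at rank 976, and its phospho-CREB partner had a MaxD of 6.72 at rank 2350. The 5 phospho-CREB partners were not sparse, at percentiles of 29.6 to 34.5 of their list. All 5 CREB sites of these pairs lay in the 3 H3K27ac lists, at CREB sites of the 3 hepatocyte lists and in both fed liver lists. Of these 5, 0 lay at a GR site. Most CREB sites of class 1 had the same overlaps, with 78.2% in a 24 h H3K27ac region, 85.3% at a hepatocyte glucagon CREB site and 11.5% at a GR site.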

How the data were processed

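Chromatin immunoprecipitation with sequencing of mouse liver and hepatocytes gave 38 samples in 15 groups. The authors deposited 13 lists. Library numbers in the labels tied 11 of them to a group, and 2, with 8 value columns, matched no sample and were not used. CASAVA 1.8 and build mm9 come from the submitters' processing notes. The list names speak of hotspot calling on a pair of libraries. The sources used here do not give the aligner or the settings of the caller. Per the file headers, each deposited list gives a MaxD, used as the authors' density signal of a site, and a z-score, used as the authors' score, with no stated normalization.

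Sites were matched by at least 1 shared base and ranked by MaxD within a list. Ties were frequent, with 990 distinct MaxD values in the fasted phospho-CREB list and 2861 in the CREB list, and were broken by position. Rank percentile is rank over list length. A site touching several partners was paired with the densest. Tables were handled with pandas 2.3.3 and numpy 2.4.6 in Python 3.11.15, intervals and Spearman correlations came from SciPy 1.17.1, and plots from matplotlib 3.10.9. Matching was tested on simulated lists with planted overlaps. Sites named are the 5 densest shared sites by each list, the 5 densest sites of each list only and, among pairs in the upper 10% of one list, the 5 with the lowest rank in the other. The members and comparisons were chosen with earlier results of these data known, and the split by hepatocyte CREB sites was chosen after seeing the data. Alternatives were other overlap rules, 500 bp windows, z-score ranks, a shortened CREB list, the upper 50% of each list, and removal of sites with a MaxD over 1000 or of chromosomes X and Y. No mm9 genome or annotation was used, so no motif, sequence or gene was assigned.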

Additional observations from a re-analysis of the deposited data

How the results depend on the processing

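The direction of the main contrasts was the same in every alternative run for each. The densest 10% of phospho-CREB sites had a higher share than the whole list in 8 of 8 alternatives. Without regard to density class, the order of shares in 24 h H3K27ac regions, CREB-only over shared over phospho-CREB-only sites, held in 7 of 7. Dense CREB sites at hepatocyte CREB sites had a lower share at phospho-CREB than those not at one in 10 of 10. Of 71 alternative shares, 37 stayed within the interval of the share reported and 34 lay outside it, and the cause was not tested. The Spearman correlation has no interval here, and 3 of its 8 alternative values equalled the 0.90 reported at 2 decimals. The share of phospho-CREB sites at a CREB site was 49.96% with a gap of up to 500 bp, 32.4% with the CREB list shortened to the length of the phospho-CREB list, 55.7% in the upper 50% of each list and 42.1% without chromosomes X and Y. The share of CREB sites at a phospho-CREB site was 30.6, 31.0, 31.8 and 23.6% under the same 4 settings. For the densest 10% of phospho-CREB sites the share was 92.8% with 500 bp windows, 88.4% with z-score ranks, 99.1% in the upper 50% and 96.5% without X and Y. For the densest 10% of CREB sites it was 70.0% with z-score ranks, 79.8% in the shortened list and 85.2% in the upper 50%, where the densest 10% holds fewer sites. The Spearman correlation over matched pairs was 0.91 with windows, 0.61 with z-scores, 0.80 with the shortened list, 0.74 in the upper 50% and 0.91 without X and Y.

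The share of shared phospho-CREB sites in 24 h H3K27ac regions was 24.3% where at least 50% of the shorter site had to be shared, 37.6% with the shortened list and 43.1% in the upper 50%. For phospho-CREB-only sites it was 2.05% with windows and 3.77% in the upper 50%. For CREB-only sites it was 39.1% with at least 50% shared, 46.8% with the gap, 73.6% with the shortened list, 77.9% in the upper 50% and 45.1% without X and Y. Among the denser 50% of CREB sites, the share of those at a hepatocyte CREB site that lay at a phospho-CREB site was 25.6% with z-scores, 24.0% with the shortened list and 27.8% in the upper 50%. For those not at one it was 75.5% with the gap, 53.3% with z-scores, 85.0% with the shortened list, 86.7% in the upper 50%, 62.7% without X and Y and 75.3% with the hepatocyte list of glucagon plus corticosterone. The alternatives for this split were added after seeing the data.

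No paired analysis was possible because each list pools its libraries and gives no value per replicate. Leaving out each replicate was not run for the same reason. The motif and gene comparisons were not run without an mm9 genome. Depth is unknown, so absence from a list means only that no site passed the authors' threshold there.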
